A study of Mus musculus with 12 samples.

Results

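Testes of wild-type C57BL/6 male mice aged 3 months (3M) and 6 months (6M) were compared gene by gene. Both ages fall in the mature adult span of the mouse, and spermatogenesis is complete at both. The comparison used 6 of the 12 libraries of the series, 3 from each age, each made from the testis of a separate mouse. The remaining 6 libraries came from mice of 12 months (12M) and 18 months (18M). They are quoted only for genes and loci that were called between the younger ages. They also entered the scaling of the printed values and an alternative fit. No mouse carried a transgene or received a treatment, and whether the mice of an age were littermates is unclear, so p-values measure the spread between these mice. The RNA was total RNA from whole frozen testis after removal of ribosomal RNA, sequenced as read pairs with a kit that keeps no strand. Each gene was the sum of the estimated reads of its annotated transcripts and of the assembled transcripts assigned to it. This gave 24336 genes, of which 18063 had enough reads in the 6 libraries to be tested and 6273 had not.

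The testis makes sperm in the seminiferous tubules and androgen between them. Spermatogonia divide by mitosis, spermatocytes go through meiosis, and round spermatids reshape into elongating spermatids that pack their DNA with protamines. Sertoli cells nurse these germ cells and seal them behind the blood-testis barrier. Outside the tubules lie Leydig cells, which make testosterone and insulin-like factor 3, together with vessels, macrophages and the contractile peritubular myoid cells. A whole-testis library mixes all of them, so that fewer cells of a type and less RNA per cell cannot be told apart.

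The 6 libraries held 50924104 to 57957440 estimated reads over all transcripts, of which 94.36% to 95.05% lay in the genes summed here. Pearson's correlation of log2(CPM + 1), where CPM is counts scaled to 1e6 reads in genes, was 0.9944 to 0.9955 between mice of the same age and 0.9938 to 0.9957 between mice of different ages. On the first principal component, with 24.1% of the variance, the 3M libraries scored -13.2, -23.8 and -11.4 and the 6M libraries 16.3, -3.8 and 35.8. The third 6M mouse (6M-3) was therefore the farthest from the others on that axis. It also held the highest value of the 6 libraries for 22.1% of the genes tested, against 10.6% to 20.0% for each of the other libraries. The biological coefficient of variation, the spread between mice of an age beyond counting error, was 15%.

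Few genes were called between the ages. By edgeR's quasi-likelihood test with Benjamini-Hochberg adjustment, 9 genes were called at an adjusted p of 0.05 or less, which is 0.0498% of those tested. Among them, 5 were higher at 6M (0.0277%) and 4 were lower (0.0221%), and 6 changed by a log2 fold change of at least 1 in size (0.0332%). At an unadjusted p of 0.05 or less there were 718 genes, or 3.97%, where 5% would be expected with no change. The values of the ages did not overlap in 1733 genes, or 9.59%. The median log2 fold change over all tested genes was 0.002, with quartiles of -0.067 and 0.090. Of the 9879 genes with a mean of at least 10 CPM, 98.7% differed by less than 0.5 on the log2 scale. The 95% interval of a gene's log2 fold change reached 0.256 to either side in the median gene, 0.36 at 1 to 10 CPM and 0.13 at 100 CPM or more. These intervals are for 1 gene at a time, without adjustment over all genes tested, so they do not give the smallest change that could be called. The smallest called change was that of Ubl5, at -0.82, while Klk1b21 at -0.93 was not called (adjusted p = 0.168 by edgeR).

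**Figure D1:**
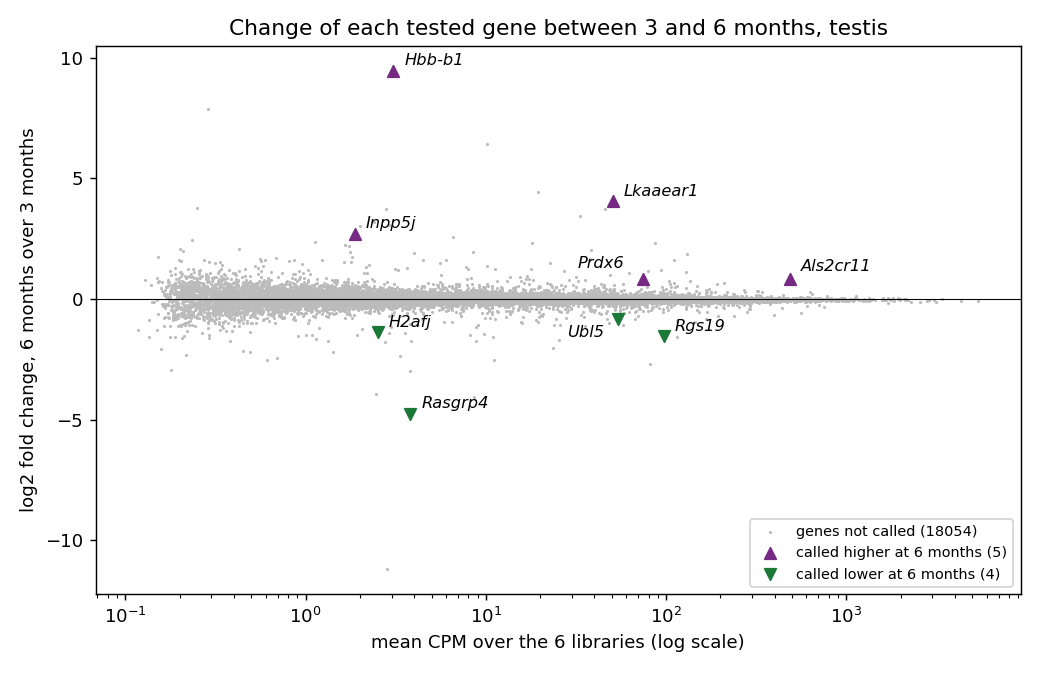
Log2 fold change of each tested gene (6M over 3M, vertical axis) against its mean CPM over the 6 libraries (horizontal axis, log scale). Grey points are the genes that were not called, and triangles are the 9 called genes. Most genes lie close to 0, with a median of 0.002, and the called genes range from Rasgrp4 at -4.74 to Hbb-b1 at 9.46.

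The called genes had different roles. Rgs19 is a regulator of G protein signaling, Rasgrp4 an activator of Ras best known from mast cells, and Inpp5j a phosphatase of inositol phosphates and phosphoinositides. Als2cr11, now named C2cd6, encodes a part of the CatSper calcium channel complex of the sperm tail. Prdx6 encodes peroxiredoxin 6, an enzyme that reduces peroxides, and Hbb-b1 an adult beta globin. Ubl5 encodes a ubiquitin-like protein of pre-mRNA splicing, and H2afj the histone variant H2A.J. Lkaaear1 lies next to Rgs19 on the same strand. Each called gene had values at the ages that did not overlap. Several of them shared their reads with other transcripts of the same assembled locus, with an overlapping gene or with a near-identical copy, and these values are given with each gene. For this purpose the reads were also summed over each locus of the merged transcript assembly, and over regions of loci whose exons overlap on either strand. Of 23986 loci tested in the same way 11 were called (0.0459%), and of 20684 regions 12 were called (0.058%).

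Rgs19 (chromosome 2, 181688419 to 181693977, build mm10) had 145, 138 and 150 CPM in the 3M mice and 52.0, 47.1 and 49.7 CPM in the 6M mice. Its log2 fold change was -1.54 (95% interval -1.68 to -1.39, adjusted p = 2.7e-04), or 2.9-fold lower at 6M. Lkaaear1 (chromosome 2, 181696795 to 181698442) moved the other way, from 8.65, 3.83 and 4.83 CPM at 3M to 94.2, 98.3 and 94.4 CPM at 6M. Its log2 fold change was 4.05 (95% interval 3.40 to 4.71, adjusted p = 0.0028). The assembly joined the neighbouring genes into 1 locus, in which 5 assembled transcripts hold exons of both genes, contain all 716 bases of the Lkaaear1 transcript and are counted as Rgs19. These joint transcripts took 94.3%, 96.7% and 96.4% of the locus' reads at 3M and 34.2%, 31.6% and 33.3% at 6M. The annotated Lkaaear1 transcript alone received 280, 133 and 262 reads at 3M and 4546, 4723 and 5139 at 6M. RefSeq transcripts of Rgs19 alone received at most 1.33% of the locus' reads in any of these mice. The locus as a whole, on its own CPM scale, stood at 145, 135 and 147 CPM at 3M and at 139, 138 and 138 CPM at 6M. Its log2 fold change of -0.04 (95% interval -0.15 to 0.07, adjusted p = 0.992) was within the spread between mice. The older mice fell on either side, with 12M-1, 12M-2 and 18M-2 nearer to the 3M level of Rgs19 and 12M-3, 18M-1 and 18M-3 nearer to the 6M level.

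**Figure D2:**
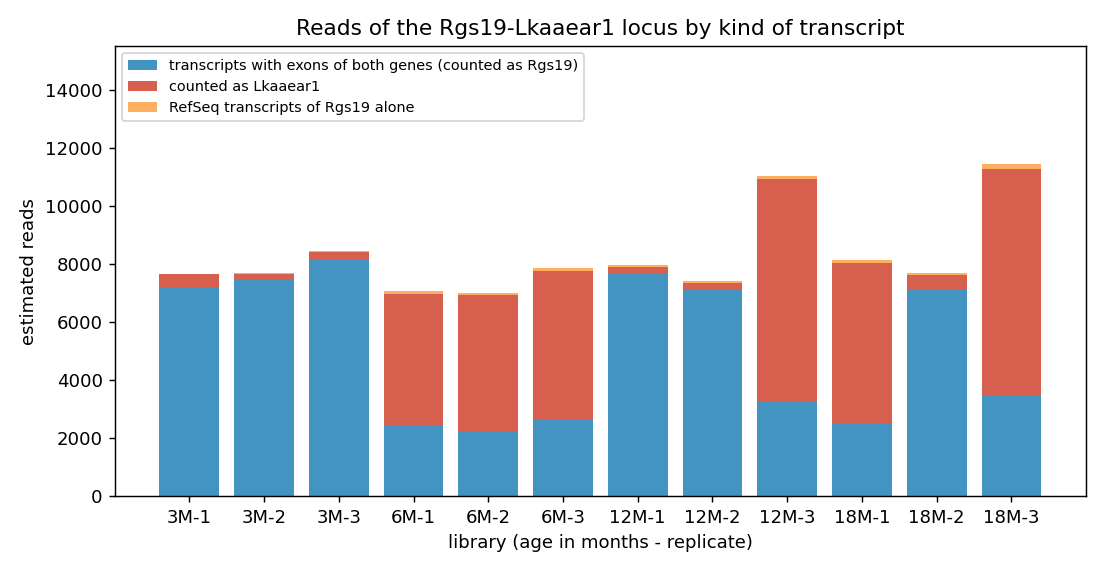
Estimated reads of the Rgs19-Lkaaear1 locus (vertical axis) in each of the 12 libraries (horizontal axis), stacked by kind of transcript. The part counted as Lkaaear1 is small at 3M (2.71% to 5.64%) and takes 64.4% to 67.6% at 6M, while the total of the 6 bars stays between 6988 and 8446 reads. The 12M and 18M bars are of both kinds.

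Als2cr11 (chromosome 1, 59050506 to 59094900) rose from 358, 332 and 360 CPM at 3M to 646, 634 and 609 CPM at 6M. Its log2 fold change was 0.85 (95% interval 0.73 to 0.96, adjusted p = 0.0021), or 1.8-fold. The annotated transcript did not take part in this, with 11016, 12315 and 12562 reads at 3M and 10394, 10463 and 10676 at 6M. An assembled transcript with exons of both ends of the locus had 4128, 3752 and 3561 reads at 3M and 20395, 19720 and 21615 at 6M. Transcripts of the downstream end alone, which were classed as lying outside any annotated gene and were therefore not summed, were 3 in number. The most abundant had 8824, 8447 and 10752 reads at 3M and 2422, 2301 and 2673 at 6M, and another had 6941, 2059 and 6474 and then 1035, 1181 and 577. The last had 0, 8539 and 0 reads at 3M and 323, 0 and 949 at 6M, so that its ages overlapped. The whole locus stood at 639, 651 and 641 CPM at 3M and 686, 672 and 656 CPM at 6M, a log2 fold change of 0.06 (95% interval -0.02 to 0.14, adjusted p = 0.992). All 6 older mice, at 321 to 393 CPM for the gene, were nearer to the 3M level.

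Inpp5j (chromosome 11, 3494272 to 3504821) had 0.42, 0.44 and 0.62 CPM at 3M and 2.74, 3.77 and 3.32 CPM at 6M, a log2 fold change of 2.72 (95% interval 2.22 to 3.21, adjusted p = 0.0049). The gain lay in a 2-exon assembled transcript at the end of the gene, with 0 reads in each 3M mouse and 99, 142 and 117 in the 6M mice. A 1-exon transcript over the same stretch, which was not summed, had 179, 146 and 197 reads at 3M and 15, 25 and 5 at 6M. With both counted, the locus differed by -0.08 on the log2 scale (95% interval -0.49 to 0.33). The annotated transcript had 21, 24 and 34 reads at 3M and 33, 39 and 64 at 6M. None of the 6 older mice exceeded 0.48 CPM for the gene.

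Hbb-b1 (chromosome 7, 103826532 to 103827929) had 1, 0 and 0 reads at 3M and 213, 223 and 509 reads at 6M. With 1 read in all at 3M, the ratio of reads per depth was 1000 with an exact 95% interval of 180 to 39700 for counting error alone, and the fitted log2 fold change of 9.46 (95% interval 7.91 to 11, adjusted p = 0.0028) depends on the prior count. Hbb-bs, the beta globin of the haplotype that C57BL/6 mice carry, is annotated at the same position. It had 450, 264 and 357 reads at 3M and 0, 0 and 135 at 6M. The sum of these genes was 9.05, 4.86 and 6.54 CPM at 3M and 4.41, 4.64 and 11.8 CPM at 6M, so that the ages overlapped. The call of Hbb-b1 was lost without 3M-1, at an adjusted p of 0.0641 by edgeR. The locus, which also holds Hbb-b2, had a log2 fold change of 0.15 (95% interval -0.72 to 1.02). The alpha globins Hba-a1 and Hba-a2, which are near-identical copies as well, ranged from 0.0401 to 11.4 CPM and from 0.187 to 18.3 CPM within the 6 libraries.

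Rasgrp4 (chromosome 7, 29134933 to 29153955) fell from 9.47, 6.47 and 6.13 CPM at 3M to 0.17, 0.42 and 0.24 CPM at 6M, 26.8-fold lower. The log2 fold change was -4.74 (95% interval -5.48 to -4.01, adjusted p = 0.0028), and the locus gave the same value of -4.74. The fall lay in the annotated 17-exon transcript. Its last exon overlaps Fam98c on the opposite strand, and without strand the reads of the overlap cannot be told apart. Fam98c stood at 107 CPM on average at 3M and 108 CPM at 6M (log2 fold change 0.02, 95% interval -0.18 to 0.23). The region of 4 loci with Fam98c, Ggn and Spred3, more than 350 CPM in each mouse, differed by 0.00 (95% interval -0.13 to 0.13), an interval wider than the reads Rasgrp4 could add or remove. Among the older mice, 12M-3 and 18M-1 had 19.6 and 19.2 CPM and the other 4 had at most 0.23 CPM. These high values were not all of the same transcript. The 17-exon transcript had 719 reads in 12M-3 and 5 in 18M-1, while a 2-exon assembled transcript at the end of the gene, with 0 reads in each 3M and 6M mouse, had 424 and 1023.

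Prdx6 (chromosome 1, 161240112 to 161251210) rose from 52.2, 53.6 and 54.7 CPM at 3M to 92.5, 92.5 and 101 CPM at 6M, 1.79-fold. The log2 fold change was 0.84 (95% interval 0.70 to 0.97, adjusted p = 0.0028), and the locus and the region were called with the same log2 fold change of 0.84. The main annotated transcript went from 1219, 1447 and 1444 reads to 2902, 2802 and 2562 reads. Prdx6b on chromosome 2, an intronless copy of Prdx6, was far more abundant in these testes, at 437, 413 and 425 CPM at 3M and 413, 420 and 406 CPM at 6M. Its log2 fold change was -0.04 (95% interval -0.14 to 0.06), and the counting can split reads between such copies. Added together, they made 489, 467 and 480 CPM at 3M and 506, 513 and 508 CPM at 6M. These sums did not overlap, as was so for 9.59% of all tested genes. The log2 ratio of their means was 0.09, and this sum was not tested. The 12M mice had 50.9, 68.3 and 53.5 CPM of Prdx6 and the 18M mice 72.2, 98.0 and 101 CPM, so that the older mice spanned both levels. The call of Prdx6 was lost with annotated transcripts alone, with all 12 libraries in the fit and by limma on FPKM, where the adjusted p reached 0.229.

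Ubl5 (chromosome 9, 20643318 to 20646790) fell from 70.4, 69.1 and 67.0 CPM at 3M to 38.3, 37.1 and 41.7 CPM at 6M, 1.76-fold lower. The log2 fold change was -0.82 (95% interval -0.96 to -0.68, adjusted p = 0.0038), and it was -0.82 for the locus too. The annotated transcript with the most reads had 2726, 2902 and 2888 reads at 3M and 100, 158 and 49 at 6M, and the whole gene had 3506, 3759 and 3661 reads at 3M and 1847, 1782 and 2273 at 6M. Fbxl12, an F-box gene whose exons overlap it on the opposite strand, averaged 27.0 CPM at 3M and 27.3 CPM at 6M. With its reads included the region was still called, at -0.53 (95% interval -0.64 to -0.42, adjusted p = 0.00897). All 6 older mice, at 37.0 to 48.3 CPM, were nearer to the 6M level.

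H2afj (chromosome 6, 136808248 to 136810074) fell from 3.61, 3.66 and 3.63 CPM at 3M to 1.49, 1.48 and 1.23 CPM at 6M, 2.59-fold lower. The log2 fold change was -1.38 (95% interval -1.69 to -1.07, adjusted p = 0.0197), and the locus was called at -1.37. These levels came from 180 to 199 reads per mouse at 3M and 67 to 72 at 6M. The transcripts behind them varied between mice. The annotated transcript had 137, 169 and 42 reads at 3M and 26, 1 and 16 at 6M. An assembled transcript had 11, 8 and 125 reads and then 7, 12 and 6, and another had 32, 22 and 31 and then 39, 29 and 45. The older mice covered both levels and went beyond them, from 0.58 to 7.96 CPM, with 4 of 6 nearer to the 3M level. The call was lost when any of the 3M mice was left out, with adjusted p up to 0.113 in the same test.

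**Figure D3:**
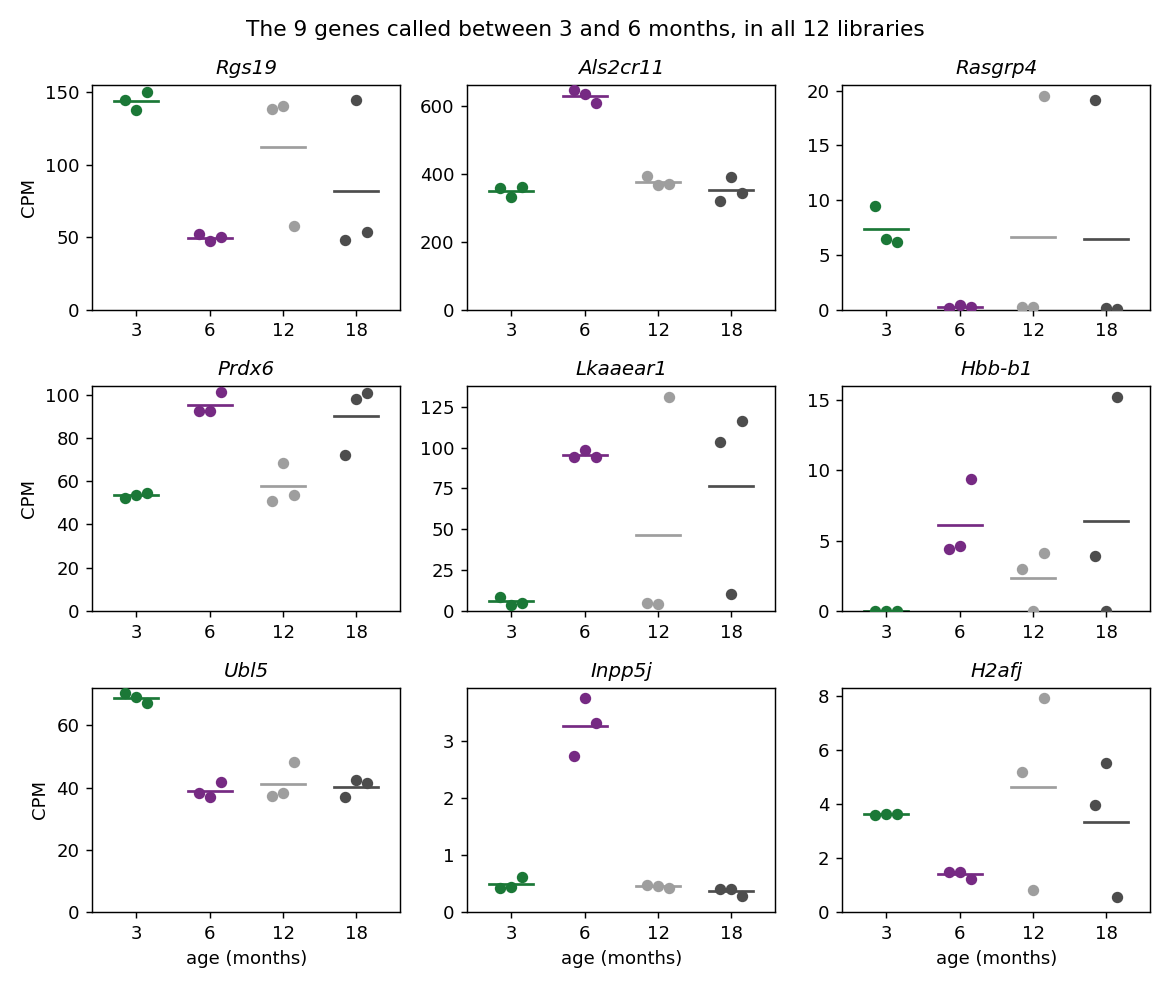
CPM (vertical axis, from 0) of the 9 called genes in each of the 12 libraries, by age in months. Points are mice and lines are the means of an age. The 3M and 6M points of each gene are apart, while Als2cr11 and Inpp5j lie near the 3M level at 12M and 18M, and Rgs19, Lkaaear1, Rasgrp4 and H2afj split among the older mice.

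**Figure D4:**
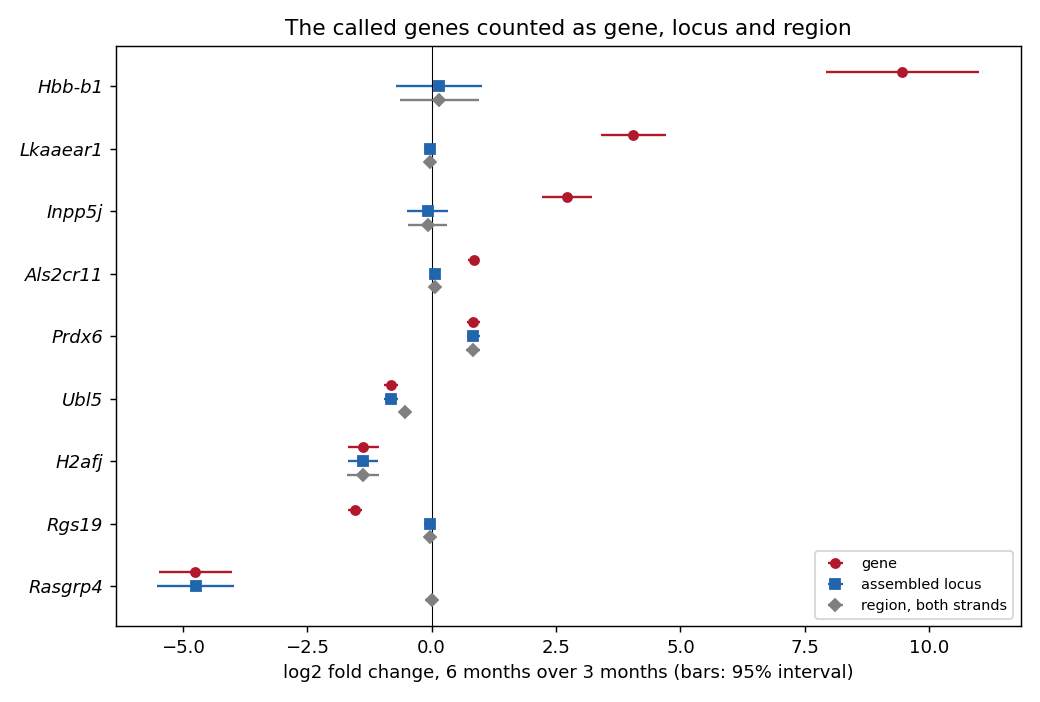
Log2 fold change (6M over 3M, horizontal axis) with 95% intervals for the 9 called genes, counted as the gene (circles), as the assembled locus (squares) and as the region of overlapping exons on both strands (diamonds). Prdx6, Ubl5 and H2afj keep their direction in all 3, at 0.84, -0.53 and -1.37 for the region, whereas the intervals of the loci of Rgs19, Lkaaear1, Als2cr11, Inpp5j and Hbb-b1 include 0.

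Cell types and pathways were then described with 42 gene lists, 14 of cell type markers and 28 of pathways, holding 795 distinct tested genes. The only called member was Prdx6, in the list of antioxidant enzymes. The other called genes were in none of the lists. The lists of sperm ion channels and red blood cells thus do not cover Als2cr11 and Hbb-b1. The medians of the lists ran from -0.74 to 0.29, and 33 of the 42 lay within 0.1 of 0 on the log2 scale. In the paragraphs that follow, genes that were not called are given as values, with 95% intervals for some of them. For comparison with the counts of list members, 2.28% of all tested genes were higher and 1.69% lower at an unadjusted p of 0.05 or less, and 4.79% were higher and 4.81% lower without overlap.

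Germ cell markers differed little between the ages. None of 17 spermatogonial, 20 spermatocyte, 14 round spermatid and 17 elongating spermatid markers was called, and their medians were -0.06, -0.04, 0.02 and -0.04, beside 0.002 for all genes. Hspa2, a chaperone of meiotic cells, averaged 1157 ± 40.3 CPM (SD, n = 3) at 3M and 1150 ± 19.4 CPM at 6M. Piwil1, which binds piRNAs in spermatocytes and spermatids, averaged 511 ± 33.9 and 513 ± 27.2 CPM. The acrosomal gene Dkkl1 averaged 634 ± 13.6 CPM at 3M and 611 ± 4.64 CPM at 6M. Protamine 2, Prm2, the most abundant marker, averaged 5584 ± 457 and 5240 ± 297 CPM, with a log2 fold change of -0.09 (95% interval -0.25 to 0.07). The summed markers of elongating spermatids ranged from 33250 to 36230 CPM at 3M and from 32520 to 34780 CPM at 6M.

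Among spermatogonial markers, 3 of 17 reached an unadjusted p of 0.05 or less, all with a positive log2 fold change and adjusted p of 0.99. Kit, the receptor of differentiating spermatogonia, had 17.5, 18.9 and 21.0 CPM at 3M and 24.8, 25.5 and 22.4 CPM at 6M, without overlap (log2 fold change 0.34, 95% interval 0.13 to 0.55). Sohlh2, a transcription factor of the same cells, had 9.45, 12.5 and 13.2 CPM at 3M and 47.7, 11.2 and 41.7 CPM at 6M. Its values overlapped because 6M-2 stayed among the 3M mice. Uchl1 and Id4, the most abundant markers of this list, had log2 fold changes of 0.01 and 0.10. Gfra1, the GDNF receptor of undifferentiated spermatogonia, had -0.07 (95% interval -0.53 to 0.39).

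Genes of the sperm itself had medians as close to 0. The 25 tested genes of the acrosome and sperm-egg fusion had a median of 0.02, the 13 of sperm ion channels 0.02, the 18 of sperm glycolysis -0.02 and the 31 of axonemal dyneins and radial spokes -0.04. Adam3, needed for sperm to pass the oviduct, averaged 1344 ± 38.8 CPM at 3M and 1315 ± 74.6 CPM at 6M. Ldhc, the lactate dehydrogenase of germ cells, averaged 3090 ± 107 and 3014 ± 50.4 CPM, and Catsperg1 of the CatSper channel 370 ± 6.37 and 356 ± 15.3 CPM. The 18 genes of the piRNA pathway had a median of 0.001. Ribosomal protein genes (81 tested, median -0.04) and respiratory chain genes (79 tested, median -0.03) were on the lower side for 66 and 51 members, by small steps. Of all 18063 tested genes 8933 were on that side. Rplp0 and Rpl41, the most abundant ribosomal protein genes, had log2 fold changes of -0.059 and -0.055, with overlapping values. Rpl13a, at the low end of this list with 139, 144 and 146 CPM at 3M and 120, 126 and 123 CPM at 6M, had a log2 fold change of -0.22 (95% interval -0.33 to -0.11, adjusted p = 0.776 by edgeR).

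Sertoli cell markers had a median log2 fold change of 0.09 over 20 tested genes, and none was called. Clu, the secreted chaperone clusterin, had 758, 748 and 752 CPM at 3M and 737, 741 and 965 CPM at 6M. The third 6M mouse held the highest of the 6 values for 14 of the 20 markers, and the summed markers were 1372 to 1782 CPM at 6M against 1382 to 1421 CPM at 3M. Without 6M-3 the median of the list was -0.04. Sox9, the transcription factor that sets Sertoli cell fate, was the marker without overlap, at 12.2, 12.7 and 10.7 CPM at 3M and 13.7, 14 and 17.2 CPM at 6M (log2 fold change 0.34, 95% interval 0.07 to 0.61). Genes of the blood-testis barrier (17 tested, median 0.04) and of inhibin and activin signaling (18 tested, median 0.00) were not called either. Amhr2, the receptor of anti-Muellerian hormone, averaged 149 ± 9.14 CPM at 3M and 158 ± 18.8 CPM at 6M.

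Leydig cell markers had a median of 0.08 over 14 genes, none of them called, and of -0.04 without 6M-3. Insl3, the insulin-like factor of Leydig cells, had 554, 619 and 612 CPM at 3M and 515, 586 and 978 CPM at 6M, the last again in 6M-3. Cyp17a1, the enzyme that turns progestins into androgens, had 148, 197 and 133 CPM at 3M and 128, 136 and 141 CPM at 6M (log2 fold change -0.24, 95% interval -0.55 to 0.07). Star, which brings cholesterol into mitochondria, and Cyp11a1, which makes the first cut in it, had log2 fold changes of 0.05 and -0.19, with overlapping values. Of these markers, 2 of 14 reached an unadjusted p of 0.05 or less. Hsd3b1, a steroid dehydrogenase of Leydig cells, had 33.2, 39.6 and 33.2 CPM at 3M and 42.6, 49.0 and 53.5 CPM at 6M (log2 fold change 0.45, 95% interval 0.21 to 0.69, adjusted p = 0.862 by edgeR). Ptgds, a prostaglandin D synthase, had 169, 106 and 177 CPM at 3M and 206, 223 and 275 CPM at 6M (log2 fold change 0.64, 95% interval 0.19 to 1.08). Hsd3b6, of the same gene family as Hsd3b1 and more abundant, did not differ in this way. It had 81.3, 93.1 and 70.5 CPM at 3M and 61.9, 81.1 and 101 CPM at 6M (log2 fold change -0.01, 95% interval -0.41 to 0.39). The 21 tested genes of steroid hormone synthesis had a median of 0.06 and the 27 of cholesterol synthesis and uptake 0.02.

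The tissue kallikreins stood farthest from 0 of all lists. They are serine proteases of a mouse gene cluster whose members are alike in sequence, so that counting can split reads among them. Of 13 tested members none was called, 12 had a negative log2 fold change, 5 were lower at an unadjusted p of 0.05 or less (1.69% of all genes) and 6 were lower without overlap (4.81% of all genes). The median was -0.74, and it was -0.21 when 6M-3 was left out. Klk1b21 had 21.8, 19.7 and 20.1 CPM at 3M and 8.79, 12.6 and 10.9 CPM at 6M, a log2 fold change of -0.93 (95% interval -1.24 to -0.63, adjusted p = 0.168 by edgeR). Klk1b24 had 16.4, 13.1 and 19.0 CPM at 3M and 8.43, 10.9 and 9.73 CPM at 6M, and Klk1b27 had 13.1, 10.9 and 12.9 CPM and then 4.68, 8.36 and 4.63 CPM. In these genes each 6M mouse was below each 3M mouse. Klk1b8, the most abundant member, gave no such picture, with 52.3, 43.2 and 47.6 CPM at 3M and 44.3, 52.6 and 41.9 CPM at 6M (log2 fold change -0.04, 95% interval -0.29 to 0.20). Klk1b9 and Klk1b26 had -0.16 and -0.15. By DESeq2, 4 members were called lower, namely Klk1b21, Klk1b22, Klk1b24 and Klk1b27. The summed members came to 120 to 143 CPM at 3M and 95.4 to 118 CPM at 6M.

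The highest medians were those of immune lists. Genes of the major histocompatibility complex (MHC) and antigen presentation had a median of 0.29 over 20 tested, none called, with 6 higher at an unadjusted p of 0.05 or less (2.28% of all genes) and 7 higher without overlap (4.79% of all genes). In 5 of the 20 the log2 fold change was negative, among them Tapbp, which helps load peptides on class I molecules, at -0.46 (95% interval -1.25 to 0.33) and H2-DMb1, which does so for class II, at -0.28 (95% interval -1.01 to 0.46). B2m, the light chain of class I molecules, had 23.7, 23.4 and 21.8 CPM at 3M and 27.4, 27.6 and 36.7 CPM at 6M (log2 fold change 0.41, 95% interval 0.14 to 0.69). Cd74, the invariant chain of class II molecules, had 7.93, 8.46 and 9.96 CPM at 3M and 11.4, 11 and 16.0 CPM at 6M. H2-Aa, a class II alpha chain, had 4.01, 4.41 and 4.28 CPM at 3M and 6.86, 5.30 and 8.52 CPM at 6M (log2 fold change 0.70, 95% interval 0.31 to 1.10, adjusted p = 0.935 by edgeR). H2-K1, the most abundant class I heavy chain, had 0.05 (95% interval -0.09 to 0.19). The highest of the 6 values was in 6M-3 for 15 of the 20 genes, and without this mouse the median was 0.12.

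Macrophage markers had the next highest median. It was 0.18 over 12 tested genes, 11 of which were positive, none was called, and 9 were highest in 6M-3. The summed markers were 75.2 to 81.5 CPM at 3M and 77.4 to 94.0 CPM at 6M, and the median without 6M-3 was 0.09. Cd163, a haemoglobin scavenger receptor of resident macrophages, had 1.06, 1.12 and 1.08 CPM at 3M and 1.62, 2.41 and 1.65 CPM at 6M (log2 fold change 0.80, 95% interval 0.32 to 1.27). Mrc1 and Csf1r, also of resident macrophages, had 0.05 and 0.21, with overlapping values. The 23 tested interferon-stimulated genes had a median of 0.16 and the 18 complement genes 0.11, with no call. Of these, 12 and 9 were highest in 6M-3, and without it the medians were 0.11 and -0.01. The part of macrophage number in the MHC values was not tested.

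No marker of the vessels, tubule wall or stroma was called. The 8 peritubular myoid markers had a median of -0.04, the 9 endothelial markers -0.05 and the 8 stromal fibroblast markers -0.23. Of the fibroblast markers 6 were highest in 3M-2, and without this mouse their median was -0.04. Without 6M-3 the myoid and endothelial medians were -0.15 and -0.14. Actg2 and Mylk, the most abundant myoid markers, had log2 fold changes of 0.035 (95% interval -0.10 to 0.17) and -0.046 (95% interval -0.18 to 0.09). Of the 8 myoid markers 3 had a positive log2 fold change. The lowest was that of Myh11, smooth muscle myosin, with 26.4, 33.0 and 24.8 CPM at 3M and 22.1, 20.8 and 21.4 CPM at 6M (log2 fold change -0.39, 95% interval -0.65 to -0.13). Among 36 extracellular matrix genes 4 were lower at an unadjusted p of 0.05 or less and 1 was higher. Col4a1, of the basement membrane, had 14.7, 21.8 and 16.1 CPM at 3M and 12.4, 12.1 and 13.7 CPM at 6M (log2 fold change -0.46, 95% interval -0.81 to -0.12, adjusted p = 0.99 by edgeR). The matrix genes had a median of -0.08, 22 of the 36 were highest in 3M-2, and without this mouse the median was -0.01. Tissue beside the testis was scarce in all libraries: 1 of 10 epididymis markers had enough reads to be tested, the summed epididymis list stayed at 4.11 to 5.24 CPM, and the summed fat markers at 10.1 to 13.2 CPM.

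Antioxidant enzymes had a median of 0.04, and of 21 tested genes Prdx6 alone was called. Gpx4, the selenoprotein that sperm need in large amounts, had 924, 889 and 967 CPM at 3M and 861, 918 and 865 CPM at 6M (log2 fold change -0.07, 95% interval -0.18 to 0.04). The other peroxiredoxins Prdx1, Prdx2, Prdx3, Prdx4 and Prdx5 lay between -0.08 and 0.04. Txn1 and Txnrd2, thioredoxin and its mitochondrial reductase, were higher without overlap at log2 fold changes of 0.30 and 0.32, with adjusted p of 0.99 by edgeR. Metallothioneins and zinc transporters (21 tested, median -0.01), heat shock proteins (23, -0.02), circadian clock genes (20, 0.04) and cell cycle inhibitors with senescence genes (16, 0.04) had no called member.

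A few genes of signaling and retinoid pathways had separate values without being called. Igf2, a fetal growth factor of the insulin family, had 5.52, 5.85 and 5.57 CPM at 3M and 9.72, 8.43 and 11.8 CPM at 6M (log2 fold change 0.82, 95% interval 0.52 to 1.13, adjusted p = 0.276 by edgeR). Rxfp2, the receptor of Insl3, had 16.4, 13.9 and 19.0 CPM at 3M and 10.9, 10.5 and 12.5 CPM at 6M (log2 fold change -0.54, 95% interval -0.84 to -0.24). Aldh1a1, which makes retinoic acid and clears aldehydes, had 165, 165 and 160 CPM at 3M and 185, 198 and 199 CPM at 6M (log2 fold change 0.25, 95% interval 0.14 to 0.36, adjusted p = 0.48). Aside from this gene, the 21 tested genes of retinoic acid synthesis and response had no member at an unadjusted p of 0.05 or less, and their median was -0.05. These genes and Hsd3b1 were called in the same directions by DESeq2, with adjusted p of 0.000132 for Igf2, 0.0358 for Rxfp2, 0.015 for Aldh1a1 and 0.0163 for Hsd3b1. Hedgehog signaling (10 tested, median -0.03) had no such member. Igf2 and Rxfp2 were not chosen by the rule for named genes but after their values were seen, as were the markers given here beyond the most abundant members of their lists.

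**Figure D5:**
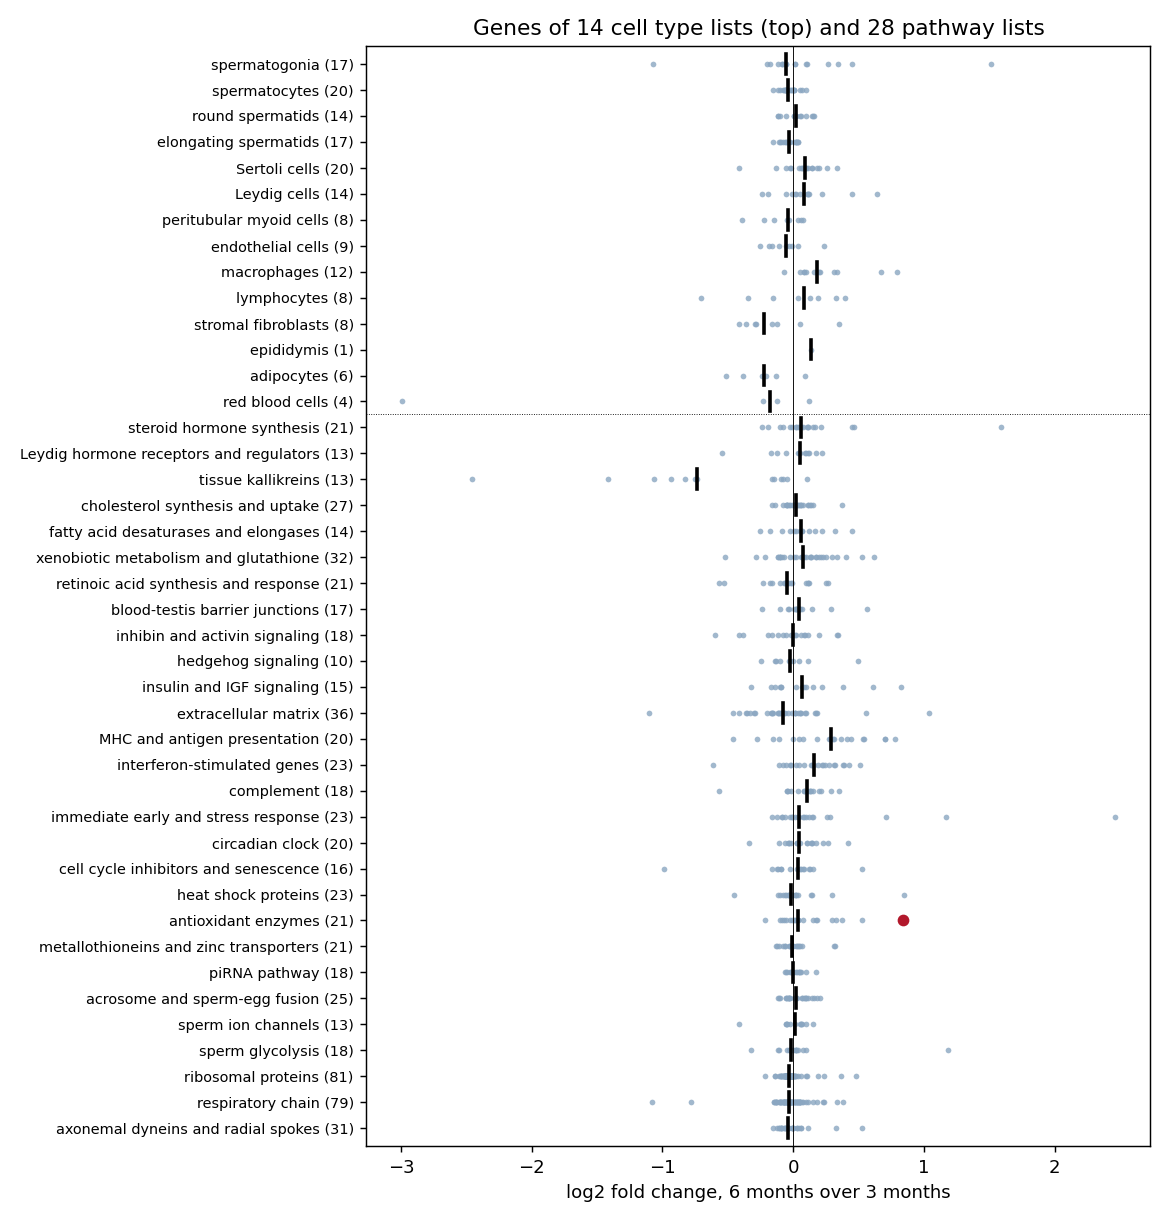
Log2 fold change (6M over 3M, horizontal axis) of each tested member (points) of the 42 gene lists, with the list's median (black bar) and the number of tested members in brackets. The red point is Prdx6, the only called member. Of the medians 33 lie within 0.1 of 0. The lowest is that of tissue kallikreins (-0.74), followed by stromal fibroblasts (-0.23) and adipocytes (-0.22), and the highest that of MHC and antigen presentation (0.29).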

How the data were processed

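RNA of 12 testes was sequenced on an Illumina HiSeq instrument, and the 3 libraries of 3M and the 3 of 6M were compared. The authors aligned the reads to mm10 with HISAT2 (version not given in the sources used here) and assembled transcripts with StringTie 1.3.3b. The authors deposited estimated counts of reads, made from StringTie's coverage, and an FPKM value for each of 71967 transcripts. The deposited counts equalled coverage times length divided by 101, rounded up, with 0 of 431802 values off by more than 1 read, so they are estimates that share reads among transcripts. The deposited FPKM values were used only in alternatives. Counts were summed per gene over the 60321 transcripts of class =, c, j or o, that is, equal to, contained in, sharing a junction with or overlapping an annotated transcript. Genes with enough reads (filterByExpr) were tested with edgeR 4.0.16, by TMM normalization, glmQLFit and glmQLFTest, and Benjamini-Hochberg adjustment over all genes tested. Printed CPM used TMM factors over all 12 libraries, and intervals are 95% intervals from the fit. Of the genes summed, 328 had several copies in the annotation.

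The script was tested on simulated data. Alternatives used DESeq2 1.42.0 and limma 3.58.1 in R 4.3.3, other filters, normalizations and rows, and the leaving out of each mouse. Loci and regions were added after the data were seen. The gene lists and the genes followed were chosen with earlier results of these data known. Named genes were the called genes with the largest change at 1 CPM or more without overlap (10 per direction at most), called list members, and the 2 most abundant members of each list; further names were chosen after their values were seen. Intervals on read ratios cover counting error only. Replicate numbers did not pair the mice (correlation of deviations -0.029, 0.019 and -0.059 for equal numbers).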

Additional observations from a re-analysis of the deposited data

Results flagged for a closer look

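Transcripts outside the annotated genes were not part of the comparison, and 4 of their loci carried more reads at 6M than at 3M by the same edgeR test over all loci. The locus MSTRG.14715 on chromosome 4 (137062918 to 137118274, minus strand) had 563, 569 and 495 reads at 3M and 1599, 1677 and 1619 at 6M, a mean of 31.0 CPM at 6M and a log2 fold change of 1.67 (95% interval 1.42 to 1.92, adjusted p = 0.00543). In the 6 older mice it had 381 to 525 reads. The locus MSTRG.6896 on chromosome 15 (24949879 to 24982966, minus strand) had a mean of 2.28 CPM at 6M, with 38, 37 and 42 reads at 3M and 121, 116 and 124 at 6M. Its log2 fold change was 1.70 (adjusted p = 0.017). The 1-exon locus MSTRG.9274 on chromosome 17 (58594498 to 58595544) had 0 reads in each 3M mouse and 79, 62 and 98 at 6M, a mean of 1.5 CPM and at least 84.7-fold higher against a floor of 3 reads over the age. Of the 6 older mice only 12M-2 had 50 reads or more there. The 1-exon locus MSTRG.9522 likewise had 0 reads at 3M and 110, 96 and 118 at 6M, a mean of 2.04 CPM, at least 115-fold higher. Older mice of 1 age differed there, with 1, 106 and 0 reads at 12M and 0, 146 and 170 at 18M. All 4 loci were called also after loci overlapping on the other strand were added.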

How the results depend on the processing

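The count of 9 genes (6 of them changed at least 2-fold) was the same with DESeq2's size factors, library sizes alone, no filter or a minimum of 1 CPM, and in each case it was the same 9 genes. DESeq2's own test called 65 genes (22), 39 higher and 26 lower, with all 9 among them. Limma on log2(FPKM + 1) called 5 (5) and all 12 libraries in 1 edgeR fit called 3 (1). Annotated transcripts alone gave 0 calls (0) by edgeR, with 729 genes at an unadjusted p of 0.05 or less. Unadjusted p gave 718 (104). Leaving out 1 mouse gave 12 to 28 calls (8 to 21), 28 without 6M-2 and 20 without 6M-1. Loci gave 11 and regions 12 calls. With the replicate block, 8 genes were called, 7 of them shared with the unpaired fit. Under annotated transcripts alone Rgs19 reversed to 1.62 and Als2cr11 to -0.10, and with transcripts of all classes Inpp5j reversed to -0.08, where a 1-exon transcript of the locus is added. Of 171 values of the called genes under the alternatives, 140 kept the call, 28 kept the direction only and 3 reversed. Among these alternatives is the unadjusted p, which is no refit and keeps each of the 9 calls by construction. Fits of loci and regions are not in this count. The loci of Rgs19, Lkaaear1, Als2cr11, Inpp5j and Hbb-b1 were not called, nor was the region of Rasgrp4. The calls lost were those of Als2cr11, Prdx6, Ubl5 and H2afj by limma, of Rgs19, Rasgrp4, Prdx6, Lkaaear1, Hbb-b1 and H2afj with all 12 libraries, of Ubl5 and H2afj with the replicate block and of Lkaaear1 with robust variances. The call of H2afj was lost without any 1 of the 3M mice (adjusted p up to 0.113) and that of Hbb-b1 without 3M-1 (0.0641), both by edgeR. The cause of the other changes was not tested. With 3 mice per age, the 95% interval of the median gene reached 0.256 to either side of its log2 fold change.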

Other observations

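DESeq2 called 56 genes that edgeR did not, 34 higher and 22 lower at 6M. The edgeR test included 53 of them, and 51 had values at the ages that did not overlap, against 9.59% of all tested genes. The calls came from the same 6 libraries, so this separation is no separate support for them. The genes named here were chosen after their values were seen. Pcnp, with the smallest DESeq2 adjusted p of these genes (5.7e-11), averaged 21.4 CPM at 3M and 36.8 CPM at 6M. Its edgeR adjusted p was 0.0574, and 0.00799 with robust variances. The region of Pcnp was called by edgeR (adjusted p = 0.0357). Agt, the precursor of angiotensin, averaged 162 ± 22.2 CPM (SD, n = 3) at 3M and 258 ± 26.7 CPM at 6M, with a DESeq2 adjusted p of 5.88e-07 and an edgeR adjusted p of 0.289. Bhmt, which remakes methionine from homocysteine, averaged 82.3 ± 1.76 and 128 ± 18.5 CPM. Oxtr, the oxytocin receptor, averaged 4.25 ± 0.219 and 6.47 ± 0.547 CPM. Dhx58, a sensor of viral RNA, averaged 22.2 ± 1.28 and 41.5 ± 8.39 CPM, and Adam11, a cell surface protein without protease activity, 24.7 ± 0.891 and 13.5 ± 2.16 CPM. Pomc, the precursor of melanocortins and endorphin, averaged 4.65 ± 3.58 and 0.303 ± 0.135 CPM. The lowest 3M mouse was at 0.542 CPM and the highest 6M mouse at 0.456 CPM, while the other 3M mice were at 7.12 and 6.28 CPM.

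Among loci without an annotated gene on their strand, 3 were called lower at 6M. The locus in introns of Il16 on the opposite strand (chromosome 7, 83710314 to 83722267) had 655, 495 and 519 reads at 3M and 32, 38 and 49 at 6M, with a log2 fold change of -3.74 (95% interval -4.22 to -3.27, edgeR adjusted p = 0.00283). Il16 itself, a cytokine gene, was not called (edgeR adjusted p = 0.99). The older mice had 663, 512 and 41 reads at 12M and 656, 445 and 117 at 18M. A 1-exon locus on chromosome 5 (32712951 to 32714575) had 136, 143 and 136 reads at 3M and 0 in each 6M mouse, at least 130-fold lower. It was not called once loci overlapping on the other strand were added. In the older mice it had 114, 0 and 201 reads at 12M and 106, 104 and 166 at 18M. The locus MSTRG.10073 had 520, 471 and 494 reads at 3M and 0 in each 6M mouse, at least 466-fold lower, and was called also together with the locus on the other strand. Its reads differed among older mice of 1 age, with 0, 426 and 543 at 12M and 421, 0 and 0 at 18M.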
